A study of Danio rerio with 6 samples.

Results

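Parvalbumins are small cytosolic EF-hand proteins that bind calcium and magnesium. In fast skeletal muscle, and above all in fish muscle, they take up calcium after each contraction and so speed relaxation. In neurons and sensory hair cells they shorten and shape calcium signals. The parvalbumin genes described here are all genes whose name in the expression tables starts with pvalb, which were 9 of 19071 genes (pvalb1 to pvalb9). All 9 passed the filter on low values (mean FPKM 0.5 or more), which left 18432 genes to test. FPKM divides the fragments of a gene by its length and by the size of the library, so levels of different genes can be set side by side.

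RNA came from pooled zebrafish larvae at 3 dpf, kept in E3 medium with no treatment or dissection described, and 3 libraries of P2RY11 mutants were compared with 3 of WT siblings. Mutants carried a small frame-shifting deletion in the second exon of p2ry11, made with CRISPR/Cas9 and kept as a single founder line. The cross, the genotyping of the pools and the origin of the replicates are not given in the sources used here, so the spread behind each p-value may be technical. As a check of the labels, p2ry11 was listed at 0 in all 3 mutant libraries and at 0.707 to 1.02 FPKM in the WT siblings (exact permutation test, two-sided, p = 0.1, the smallest that 3 against 3 allows). Of 14 genes that mark different larval tissues, such as krt4 of the epidermis and elavl3 of neurons, all were above 0 in every library. FPKM summed to 443849 to 499493 per WT sibling library, the highest being replicate 3, and to 426645 to 434740 per mutant library. Every mutant total thus lay below every WT sibling total. The sums of gene lists given below were not rescaled to these totals. Read depth is unknown, because FPKM does not keep it and at most 6 genes had values low enough in a pair of libraries to look for steps of single reads. The log2 difference had a median of 0.16 over all tested genes, and changes are also given relative to it.

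The parvalbumin genes covered a wide range of levels. In WT siblings the mean was 4552 ± 809 FPKM for pvalb1 (SD, n = 3 here and for the other means) and 3.03 ± 1.25 FPKM for pvalb7, a 1501-fold range. pvalb1 had the rank 2 by mean FPKM among all tested genes, and pvalb2 the rank 17. pvalb1 and pvalb2 together made up 89.0% ± 0.609 of all parvalbumin FPKM in WT siblings and 87.7% ± 0.968 in mutants. The next in order were pvalb4 at 603 ± 129 FPKM and pvalb9 at 146 ± 41.1 FPKM. pvalb3, pvalb8 and pvalb5 followed at 38.3 ± 11.1, 36.9 ± 6.81 and 32.5 ± 7.30 FPKM, and pvalb6 at 9.10 ± 0.663 FPKM. The ranges of pvalb3 and pvalb8, and those of pvalb8 and pvalb5, overlapped between WT sibling libraries. All other neighbors in the order were separated in both groups. In mutants the order of the 9 means was the same.

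**Figure D1:**
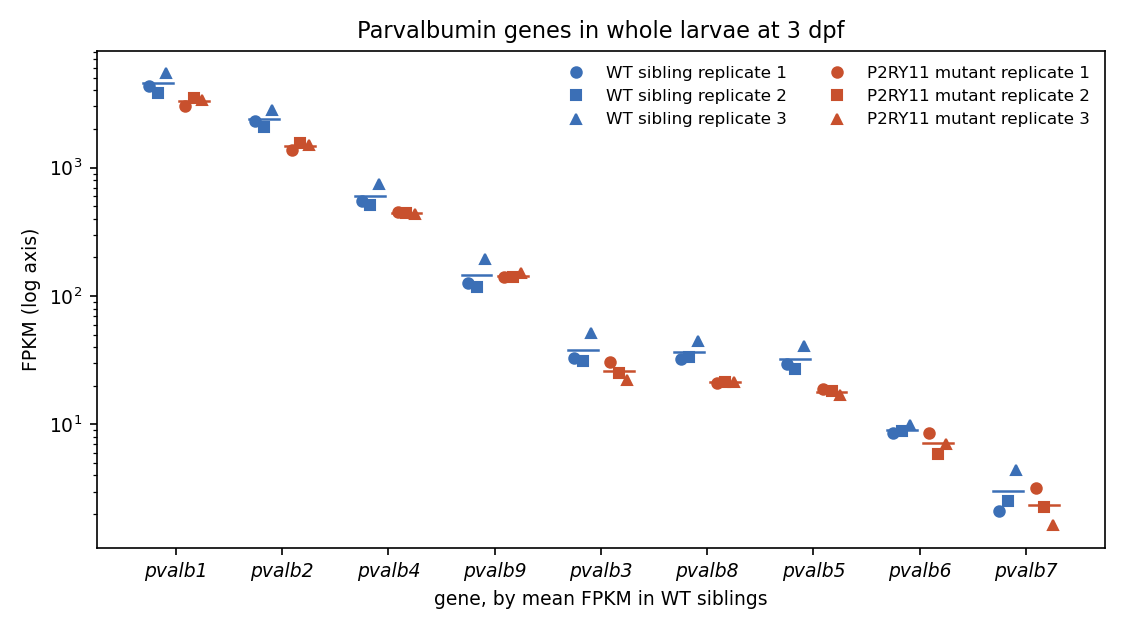
FPKM of the 9 parvalbumin genes on a log axis, ordered by the WT sibling mean. Points are single libraries (marker shape gives the replicate, blue WT siblings, orange P2RY11 mutants) and lines are group means. WT sibling replicate 3 is the highest WT sibling library for all 9 genes, and the groups do not overlap for 6 of them.

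pvalb1, pvalb2 and pvalb4 are the abundant parvalbumin genes of skeletal muscle. pvalb1 (ENSDARG00000037789) was at 4369, 3850.0 and 5437 FPKM in WT sibling replicates 1, 2 and 3. In mutant replicates 1, 2 and 3 it was at 2999.6, 3515 and 3362 FPKM, so every mutant library lay below every WT sibling library. Its log2 difference, the mutant minus the WT sibling mean of log2(FPKM + 1), was -0.46 (95% interval -0.87 to -0.04) and did not pass the test across all genes (adjusted p = 0.114 from limma). pvalb2 (ENSDARG00000002768) was at 2315, 2093 and 2833 FPKM in WT siblings and at 1370.1, 1560.0 and 1493 FPKM in mutants. The gap between its groups was wider than the range of the mutants, and its log2 difference of -0.70 (95% interval -1.05 to -0.35) passed the test (adjusted p = 0.0309 from limma). The mean went from 2413 ± 380 to 1474 ± 96.4 FPKM, which is 38.9% lower. After median-of-ratios scaling the log2 difference of pvalb2 was -0.89, and its adjusted p was 0.0546 from limma. This scaling also moved the median of all tested genes, from 0.16 to 0.016. pvalb4 (ENSDARG00000024433) was at 549, 509.6 and 749 FPKM in WT siblings and at 450.5, 446 and 437 FPKM in mutants. Its groups did not overlap, and the log2 difference was -0.42 (95% interval -0.77 to -0.06, adjusted p = 0.101 from limma). It was -0.25 without WT sibling replicate 3 (adjusted p = 0.0230) and -0.16 after quantile normalization (adjusted p = 0.190).

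pvalb8 (ENSDARG00000037790) was the member with the smallest p. In zebrafish it is known as a gene of mechanosensory hair cells, and RefSeq gives it the older symbol ocma, after oncomodulin, the hair cell parvalbumin of mammals. It was at 32.4, 33.6 and 44.7 FPKM in WT sibling replicates 1, 2 and 3. In mutants it was at 20.9, 21.3 and 21.4 FPKM, the narrowest spread of any parvalbumin gene in these libraries. limma gave a log2 difference of -0.76 with an SE of 0.128 (adjusted p = 0.0177), and the mean was 42.5% lower. pvalb5 (ENSDARG00000032836) had the most negative difference of the family. It was at 29.7, 27.1 and 40.8 FPKM in WT siblings and at 18.76, 18.07 and 17.04 FPKM in mutants, again without overlap. Its log2 difference was -0.80 (SE 0.151, adjusted p = 0.0222), and the mean was 44.8% lower. Of all tested genes, 1.55% had a more negative difference than pvalb5 and 1.80% a more negative one than pvalb8.

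For the other members the test gave no call. pvalb3 (ENSDARG00000022817) was at 32.7, 31.2 and 51.1 FPKM in WT siblings and at 30.9, 25.2 and 22.3 FPKM in mutants. Its highest mutant and lowest WT sibling libraries were almost level, and its log2 difference was -0.51 (95% interval -0.996 to -0.03, adjusted p = 0.123 from limma), or -0.29 without WT sibling replicate 3. pvalb6 (ENSDARG00000009311), which marks groups of neurons in zebrafish, was at 8.52, 8.95 and 9.82 FPKM in WT siblings and at 8.64, 5.88 and 7.01 FPKM in mutants. Mutant replicate 1 lay within the WT sibling range, and the log2 difference was -0.32 (95% interval -0.65 to 0.02, adjusted p = 0.160). pvalb7 (ENSDARG00000034705), a marker of cerebellar Purkinje cells in zebrafish, was at 2.12, 2.52 and 4.45 FPKM in WT siblings and at 3.19, 2.27 and 1.64 FPKM in mutants. The groups overlapped widely and the interval of its log2 difference reached from -0.84 to 0.36 (adjusted p = 0.514). Without WT sibling replicate 3 its difference was -0.0032.

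pvalb9 (ENSDARG00000071601) had the log2 difference nearest to 0. RefSeq gives it the older symbol ocmb. It was at 127, 119 and 194 FPKM in WT siblings and at 140.5, 140.2 and 152 FPKM in mutants. WT sibling replicates 1 and 2 lay below all mutant libraries and WT sibling replicate 3 above them. The log2 difference was 0.011 (95% interval -0.41 to 0.43, adjusted p = 0.971 from limma). Without WT sibling replicate 3 it was 0.23 (adjusted p = 0.0367 from limma). After median-of-ratios scaling it was -0.18, while the median of all tested genes moved from 0.16 to 0.016.

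**Figure D2:**
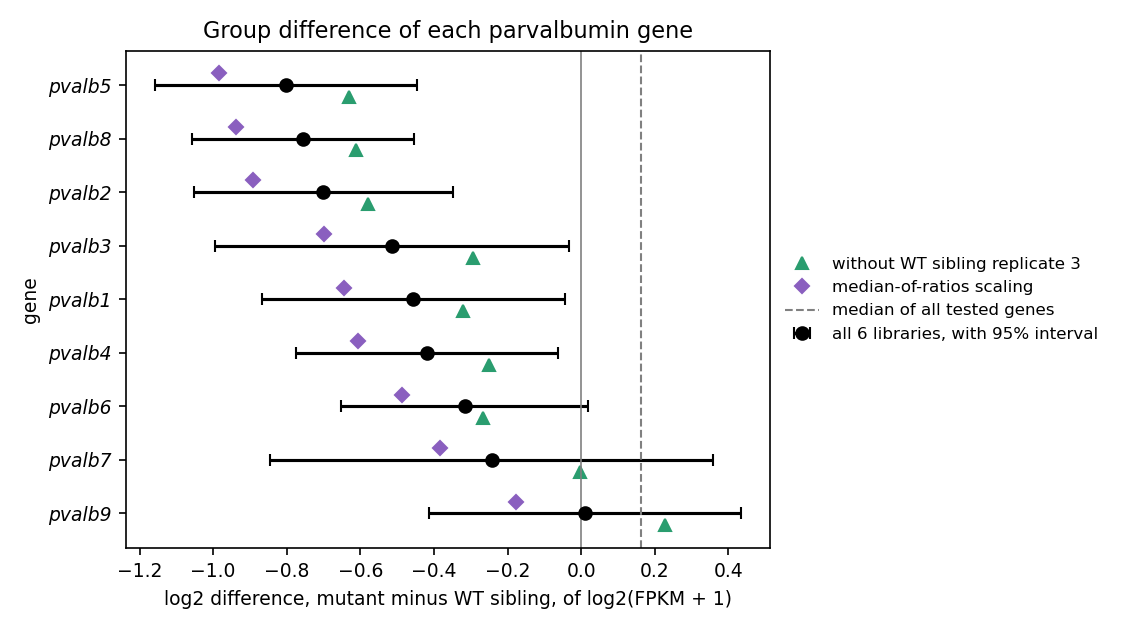
Log2 difference (mutant minus WT sibling) of each parvalbumin gene on the log2(FPKM + 1) scale. Black points with bars are the fit on all 6 libraries with its 95% interval. Triangles leave out WT sibling replicate 3, and diamonds follow median-of-ratios scaling. The dashed line is the median of all tested genes in the fit of the black points (0.16). In the fit of the triangles this median was 0.11, and in that of the diamonds 0.016. pvalb5, pvalb8 and pvalb2 lie farthest to the left and pvalb9 farthest to the right in all 3 versions.

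Over the whole family 3 of 9 genes were called lower (pvalb2, pvalb5 and pvalb8) and 0 higher at an adjusted p under 0.05. Over all tested genes 3.98% were called lower and 8.23% higher. At an unadjusted p under 0.05 the same fit had 6 of the 9 genes lower and 0 higher, against 9.21% and 26.0% of all tested genes. With the further demand that the means differ more than 1.5-fold, 3 of 9 were lower, against 4.73% of all tested genes. The log2 difference was negative for 8 of 9 genes and for 31.1% of all. In 6 of the 9 genes every mutant library lay below every WT sibling library, which held for 11.7% of all tested genes, and in 0 every mutant library lay above, against 35.0% of all genes. The median log2 difference of the 9 genes was -0.46, which is -0.62 relative to all genes, and it was -0.29 without WT sibling replicate 3. It stayed 0.41 to 0.77 below the median of all genes under every alternative listed in the closing section. Among all tested genes, calls in the upper FPKM classes were mostly lower in mutants. Of 573 tested genes with a mean of 100 to 1000 FPKM, 93 fell and 13 rose, with a median of -0.18. Of 55 genes at 1000 FPKM or more, among them pvalb1 and pvalb2, 9 fell and 2 rose, with a median of -0.32. This did not hold at 10 to 100 FPKM, the class of pvalb3, pvalb5 and pvalb8. Of its 5209 genes 308 fell and 425 rose, with a median of 0.089. In bulk RNA, fewer cells of a type and less RNA per cell cannot be told apart.

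Single libraries weighed on these calls. WT sibling replicate 3 was the highest WT sibling library for all 9 genes and exceeded the mean of the other 2 by 0.15 (pvalb6) to 0.72 (pvalb7) on the log2 scale, with a median of 0.50. The median over all tested genes was -0.12, but it depended on the level. It was -0.19 for genes with a mean of 0.5 to 10 FPKM and 0.014 at 10 to 100 FPKM. At 100 to 1000 FPKM it was 0.25, and at 1000 FPKM or more 0.28. Without this library the differences of the called genes shrank to -0.58 for pvalb2, -0.63 for pvalb5 and -0.61 for pvalb8, but 5 of the 9 genes were then called lower, since pvalb1 and pvalb4 were added. The share of all tested genes called lower went from 3.98% to 8.11% without this library, and that called higher from 8.23% to 20.1%. Without mutant replicate 1, 2 or 3 no parvalbumin gene was called by limma. The log2 differences of pvalb2, pvalb5 and pvalb8 then lay between -0.83 and -0.65, close to those of all libraries, with adjusted p between 0.0761 and 0.136. At an unadjusted p under 0.05, 5, 3 and 3 of the 9 genes were lower in these fits, against 7.67%, 7.10% and 6.66% of all tested genes. Without WT sibling replicate 1 only pvalb8 was called (adjusted p = 0.0463 from limma). Leaving out these libraries also cut the calls over all genes, from 733 lower to between 76 and 162.

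The summed FPKM of the family gives its weight in the transcriptome. It was 7465, 6674 and 9364 FPKM in WT siblings and 5043, 5734 and 5513 FPKM in mutants. The family took 1.68% ± 0.186 of the summed FPKM of a WT sibling library and 1.26% ± 0.0734 of that of a mutant library. The sum was 30.7% lower in mutants, and 23.2% lower without WT sibling replicate 3. pvalb1 and pvalb2 set most of this sum.

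Ratios between members within a library do not change when a library is scaled by a single factor. Of the 36 ratios between pairs of members, 14 did not overlap between groups. Over all pairs of tested genes above 0 in every library 41.1% did not overlap, so the members' share was no higher than that of other pairs. For each of them an exact permutation test on the log2 ratio, two-sided, gave p = 0.1, the smallest possible, so none can pass a correction over 36 pairs. The ratio of pvalb1 to pvalb2 was 1.84 to 1.92 in WT siblings and 2.19 to 2.25 in mutants. pvalb2 took 30.9% ± 0.568 of all parvalbumin FPKM in WT siblings and 27.1% ± 0.0625 in mutants. pvalb9 took part in the most such pairs, 6 of its 8. How many of all tested genes would do so against the same 8 members was not counted. Its share of parvalbumin FPKM went from 1.85% ± 0.194 to 2.66% ± 0.189. Relative to pvalb9, pvalb5 went from 0.211 to 0.233 in WT siblings to 0.112 to 0.134 in mutants, a log2 difference of -0.85. pvalb8 went from 0.231 to 0.283 to 0.141 to 0.152, a log2 difference of -0.79. In both ratios WT sibling replicate 3 was the WT sibling library nearest to the mutants. The ratio of pvalb5 to pvalb8 itself overlapped between groups (0.807 to 0.916 and 0.797 to 0.896). pvalb9 was singled out after its values had been seen.

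**Figure D3:**
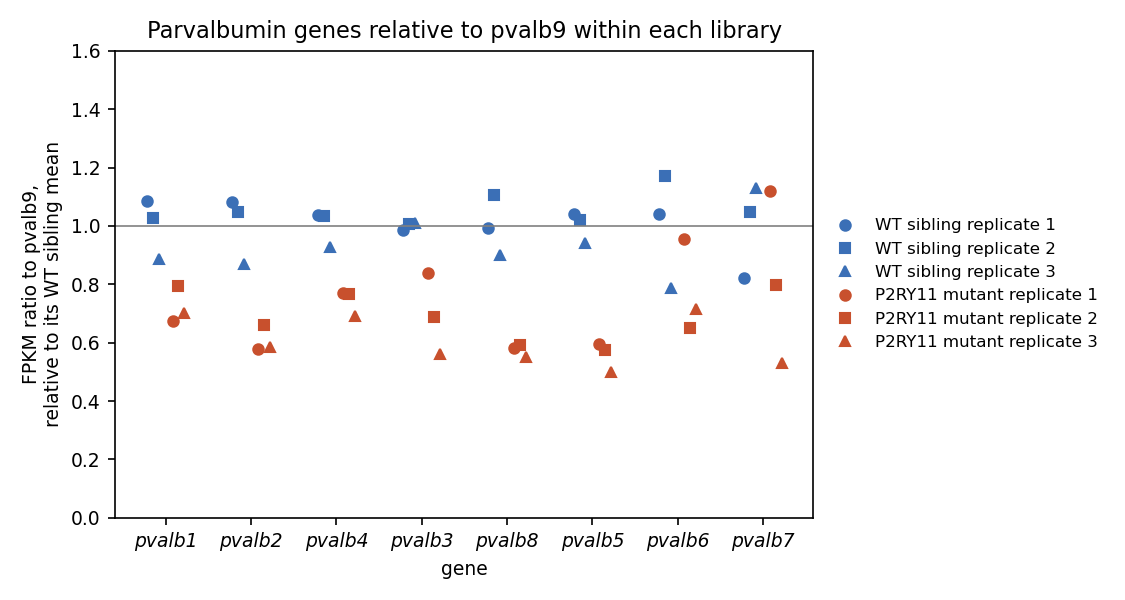
FPKM of each parvalbumin gene divided by that of pvalb9 in the same library, relative to the mean of this ratio in WT siblings (blue; P2RY11 mutants orange; marker shape gives the replicate). For pvalb1, pvalb2, pvalb3, pvalb4, pvalb5 and pvalb8 all mutant libraries lie below all WT sibling libraries, and for pvalb6 and pvalb7 the groups overlap.

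The members lie in tandem groups. In the RefSeq annotation of the assembly GRCz12tu, pvalb8, pvalb4, pvalb1 and pvalb5 follow each other without another protein-coding gene between them, and so do pvalb9, pvalb3 and pvalb2 on another chromosome. The first group lies on the chromosome of p2ry11, with 158 protein-coding genes between p2ry11 and pvalb8. pvalb6 lies alone on the same chromosome and pvalb7 alone on yet another one. The called genes did not fall into a single group, since pvalb5 and pvalb8 belong to the first and pvalb2 to the second. The 4 genes of the first group had differences of -0.76 (pvalb8), -0.42 (pvalb4), -0.46 (pvalb1) and -0.80 (pvalb5). In the second group the values were 0.011 (pvalb9), -0.51 (pvalb3) and -0.70 (pvalb2). Genes around the groups were matched by symbol, and genes without a tested match were passed over. The 10 nearest matched genes around the first group, 5 on each side, had a median of 0.14. Among them aimp2 fell by 0.52 (adjusted p = 0.0215 from limma) and cacng4b rose by 0.72 (adjusted p = 0.0383 from limma). cacng4b was at 0.416 FPKM in WT siblings, below the 1 FPKM added before taking log2, and at 1.32 FPKM in mutants. Of the 10 around the second group none was called, with a median of 0.25. Over all tested genes placed on the chromosome of p2ry11, 5.52% fell, against 3.72% of the tested genes placed on any chromosome. On the p2ry11 chromosome 58 of 761 genes rose, against 1163 of 15214 on any, and the medians were 0.14 and 0.16. On the chromosome of pvalb7 4.80% fell, and on that of pvalb2 3.94%. Alleles linked to the p2ry11 mutation cannot be told apart from its effect for genes of the p2ry11 chromosome. Parvalbumin genes are similar to each other, and how reads shared between them were assigned is not given in the sources used here.

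Genes that share the muscle calcium cycle with parvalbumins were set beside them. As a scale for the calls in each list below, 8.23% of all tested genes were called higher and 3.98% lower. No list was tested as a set. Of 16 tested genes of calcium release, 1 rose and 0 fell, and their median log2 difference was 0.27. Without WT sibling replicate 3, which was low for these genes, the median was 0.048, against 0.11 over all genes. The gene that rose was cacna2d1a, a calcium channel subunit (0.47, adjusted p = 0.0368 from limma). The calcium store genes casq1b, casq1a and casq2 had differences of -0.25, -0.10 and -0.18 without passing the test. Of 11 genes of calcium uptake and sensing, none was called (median -0.17, or -0.28 without WT sibling replicate 3). The troponin C gene tnnc2, the calcium sensor of fast fibers, had 2089 ± 123 FPKM in WT siblings and 1619 ± 81.9 in mutants (log2 difference -0.37, adjusted p = 0.0791), and the calcium pump gene atp2a1 had a difference of -0.22. The summed FPKM of this list was 3279 to 3527 in WT siblings and 2568 to 2850.2 in mutants, without overlap. That of the release genes overlapped (468 to 533 and 503 to 514). Of 34 other cytosolic EF-hand genes 4 rose and 2 fell, with a median of 0.018, or 0.10 without WT sibling replicate 3. Among those that rose was the S100 gene s100u (0.38, adjusted p = 0.0278 from limma). Of the most abundant genes of this list, the calmodulin genes calm3a and calm3b, at 479 and 266 FPKM in WT siblings, had differences of 0.19 and 0.30. icn went the other way, from 600 FPKM in WT siblings to 414 FPKM in mutants (-0.49, adjusted p = 0.136 from limma). None of these passed the test. The genes that fell were the calmodulin gene calm2a, with a log2 difference of -0.58, and the S100 gene s100a11, with one of -1.24 (adjusted p = 0.0233 and 0.0263 from limma). WT sibling replicate 3 was the highest library for both, as it was for the parvalbumin genes.

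Summed muscle FPKM, not rescaled to the library totals, was also lower in mutants. Of 33 tested fast muscle genes 1 rose and 0 fell, with a median of -0.12. The gene that rose was the myosin heavy chain gene myhc4 (1.21, adjusted p = 0.0307 from limma). The abundant fast fiber genes actc1b, mylpfa, tnni2a.4 and tpma had differences of -0.37, -0.41, -0.45 and -0.43, and none passed the test. The summed fast muscle FPKM was 33464 to 36811 in WT siblings and 28306 to 31786 in mutants, without overlap. The library totals differed in the same direction. WT sibling replicate 3 had 33464 of 499493 FPKM, a smaller share than the 31786 of 431753 FPKM of mutant replicate 2. As shares of the totals, the fast muscle sums thus overlapped between groups. Of 14 slow muscle genes, tnni1c and myl13 fell by 0.92 and 0.51 (adjusted p = 0.0131 and 0.0390 from limma). The list median was -0.043, and the sums were 1466 to 1666 and 1247 to 1339 FPKM. Within these sums the mean of myl13 alone went from 718 to 502 FPKM. The myosin gene smyhc1 went the other way, from 158 to 186 FPKM (0.28, or 0.0036 without WT sibling replicate 3). tpm2 and tnnc1b had differences of -0.25 and -0.17, and these 3 genes did not pass the test. In contrast to the parvalbumin genes, WT sibling replicate 3 had the lowest fast muscle sum of the WT siblings. Single fast muscle genes differed in this. Among WT siblings, actc1b was lowest in this library (4807.5 FPKM), tnni2a.4 (3392.5 FPKM) and mylpfa (4360.9 FPKM) were highest in it, and tpma lay between. Per summed fast muscle FPKM, pvalb2 amounted to 6.06% to 8.47% in WT siblings and to 4.84% to 4.91% in mutants. pvalb1 amounted to 11.14% to 16.25% and 10.6% to 11.06%, so its groups nearly touched, and pvalb4 overlapped (1.48% to 2.24% and 1.404% to 1.592%). pvalb5 and pvalb8 stayed apart (0.0785% to 0.122% against 0.0556% to 0.0663%, and 0.0879% to 0.134% against 0.0670% to 0.0740%). The part of the fast muscle genes in the parvalbumin differences was not tested.

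**Figure D4:**
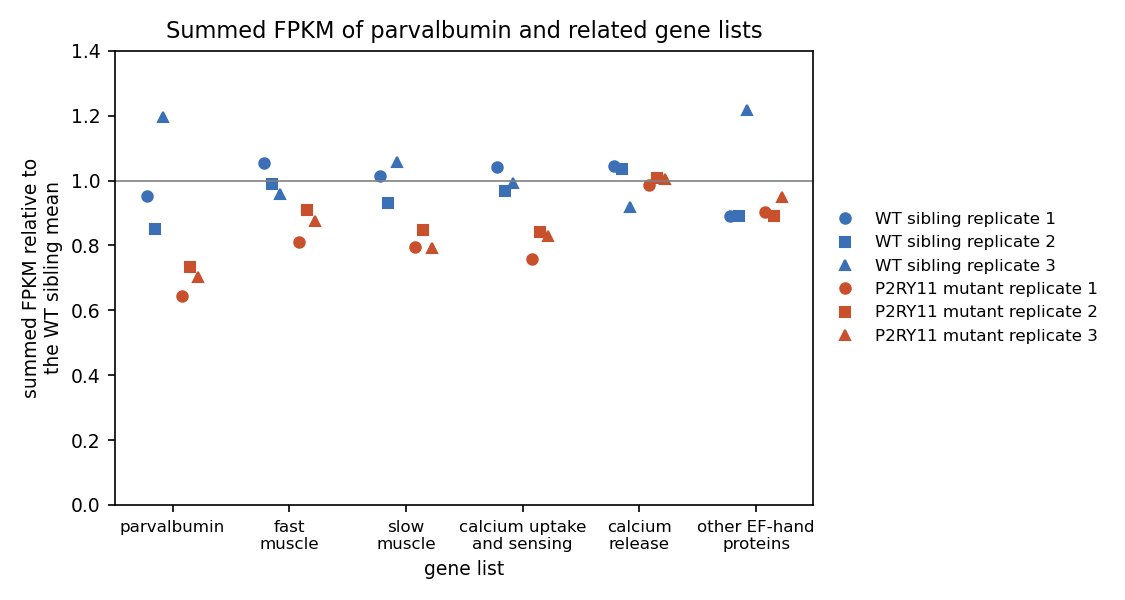
Summed FPKM of the 9 parvalbumin genes and of 5 gene lists in each library, relative to the WT sibling mean (blue WT siblings, orange P2RY11 mutants, marker shape gives the replicate). The parvalbumin, fast muscle, slow muscle and calcium uptake and sensing sums do not overlap between groups, while those of calcium release and of other EF-hand genes do. Sums are not rescaled to the library totals, and as shares of these totals the fast muscle sums overlap.

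Markers of other cells that can hold parvalbumins were set beside pvalb8 and pvalb7. Beside pvalb8, 13 tested hair cell genes had 0 calls and a median of 0.041 (0.020 without WT sibling replicate 3), and their summed FPKM overlapped (49.9 to 66.1 in WT siblings and 55.1 to 57.3 in mutants). Among them the hair cell S100 genes s100t and s100s had differences of 0.041 and -0.13. s100t alone was at 22.5 to 32.9 FPKM in WT siblings and 25.3 to 28.9 FPKM in mutants, so it set much of the sum. otofa, needed for transmitter release in hair cells, had 0.883 ± 0.0759 and 1.51 ± 0.0795 FPKM (adjusted p = 0.05005 from limma, just above the threshold). Other genes of the list went both ways without passing the test, with differences of 0.41 for myo7aa, -0.30 for gfi1aa and -0.21 for cib2. otofa, myo7aa and gfi1aa lay near or below the 1 FPKM added before taking log2, which makes their differences smaller than those of the FPKM themselves. Of the hair cell list 14 of 24 genes were found, and 1 was at 0 in a library. Beside pvalb7, 11 tested Purkinje and cerebellar genes had 1 call higher, the transcription factor gene foxp1b (0.42, adjusted p = 0.0470), and none lower, with a median of 0.21. Just above the threshold, lhx1a and tfap2e went in opposite directions (0.30 and -0.79, adjusted p = 0.0548 and 0.0564 from limma). The sums of this list were 115 to 130 FPKM in WT siblings and 131 to 142 in mutants. Much of them came from lhx1a (means of 40.6 and 50.3 FPKM) and lhx5 (27.2 and 31.5 FPKM). The neuron gene elavl3 was also called higher (0.56, adjusted p = 0.0203 from limma). RNA of whole larvae does not show which cells the genes of this list came from. Of 9 olfactory sensory neuron genes none was called (median 0.078), and their sums overlapped (62.5 to 71.5 and 66.8 to 76.4 FPKM).

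The genes whose pattern over the 6 libraries was most like that of a parvalbumin gene were found by the root mean square distance of log2(FPKM + 1) after centering each gene, among 16017 named genes with a mean of at least 1 FPKM. For pvalb1 they were rpl14, elof1, rpl36, rpl23 and the fast muscle troponin gene tnni2a.4, at distances of 0.010 to 0.041. For pvalb2 the nearest was rps6 (0.044), for pvalb5 afp4 and rps19 (0.030 and 0.031) and for pvalb8 the cathepsin B gene ctsba (0.036). Next came h2afvb and rps3 for pvalb2, cox8a and rplp0 for pvalb5, and wu:fc46h12, gpx1a and sep15 for pvalb8. A gene with only a clone name was among the nearest of both pvalb2 and pvalb8. Of the 20 nearest genes 0 are parvalbumin genes. The closest pair within the family was pvalb5 and pvalb8, at a distance of 0.078, followed by pvalb2 and pvalb8 at 0.082 and pvalb1 and pvalb4 at 0.087. These distances rest on 6 libraries and hold the group difference and the deviation of WT sibling replicate 3 together.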

How the data were processed

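RNA-seq libraries of 3 P2RY11 mutant and 3 WT sibling pools at 3 dpf were analysed. The authors trimmed, aligned (HISAT2 2.1.0) and assembled reads (StringTie 1.3.3; cutadapt 1.17 and FastQC 0.11.7 are in the submitters' processing notes) and deposited FPKM per gene from Ballgown. The paper names the assembly GRCz11 and the notes a human one, GRCh37; gene IDs are those of zebrafish. The header states FPKM in 4 tables and is blank in 2 with like values. Strand and filters are not given in the sources used here. No read counts were used, so no counting error is given.

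Values were transformed to log2(FPKM + 1). After a filter (mean FPKM 0.5 or more) 18432 genes were compared with limma 3.58.1 (R 4.3.3; eBayes with trend, two-sided, Benjamini-Hochberg over all tested genes, adjusted p under 0.05). Single values were compared by an exact permutation test. The fit was tested on simulated data. Lists covered muscle calcium release, muscle calcium uptake and sensing, other EF-hand genes, fast and slow muscle, hair cells, Purkinje cells, olfactory sensory neurons and larval tissues (3 fell and 2 rose of 14, median -0.20). Named were all members, up to 3 genes of a list by smallest p and by highest mean, and the 5 most alike in pattern to each called member and to pvalb1, of which 1 is not reported here. The genes next to each group, the pair ratios and the FPKM classes were added after values had been seen. Members and lists were chosen with earlier results of these data known. Neighbors came from RefSeq, GRCz12tu, with no coordinates used.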

Additional observations from a re-analysis of the deposited data

How the results depend on the processing

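The differences of pvalb1 to pvalb8 were negative under all 15 alternatives chosen with the design. Those of the weakly expressed pvalb6 and pvalb7 ranged from -0.49 to -0.20 and from -0.46 to -0.0032, with no call. That of pvalb9, near 0, turned negative after median-of-ratios scaling (-0.18) and with single libraries left out (range -0.12 to 0.23; -0.073 without WT sibling replicate 1, -0.12 without WT sibling replicate 2 and -0.026 without mutant replicate 3). The number of parvalbumin genes called lower was 3 with pseudocounts of 0.1 and 0.5, quantile normalization, no filter, a stricter filter (mean FPKM 1) and values rescaled to TPM. It was 2 after median-of-ratios scaling, 0 with an ordinary linear model without moderation (4 at an unadjusted p under 0.05, as were 8.24% of all tested genes) and 0 to 5 with each library left out. The number called higher was 0, and 0 to 1 with each library left out. With median-of-ratios scaling and without WT sibling replicate 3, an alternative chosen after seeing the data, 5 parvalbumin genes were lower (pvalb2, pvalb3, pvalb4, pvalb5 and pvalb8) and 0 higher, and over all genes 2146 were higher and 2432 lower. Over all tested genes 1517 were higher and 733 lower. The counts were 684 and 1048 with median-of-ratios scaling (which moved the median difference from 0.16 to 0.016), 980 and 1310 with quantile normalization and 624 and 255 with the ordinary linear model. With each library left out they ranged from 117 to 3712 higher and from 76 to 1495 lower. With the replicate number as a block 672 were higher and 404 lower, and 2 parvalbumin genes were lower (pvalb2 had an adjusted p of 0.0613 from limma). The sources used here state no pairing of libraries by these numbers, so whether they pair is not known. Deviations of equal numbers correlated by 0.016, 0.072 and 0.14 across genes, and those of unequal numbers by -0.13 to 0.11. The cause of these changes was not tested, beyond the fewer libraries or degrees of freedom that some alternatives leave. Depth is unknown, so counting error cannot be given, which matters most for pvalb7 and pvalb6 at the lowest FPKM.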
